A study of Mus musculus with 24 samples.

Results

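Mature oligodendrocytes were examined in single-cell RNA libraries of mouse motor cortex and dorsal striatum. A cell was included when it held at least 1 UMI (unique molecular identifier, a count of captured RNA molecules) of Mog, at least 4 UMIs of Mog, Mag and Mobp together, none of Pdgfra, Bmp4 or Cx3cr1 and at most 3 of Snap25. Of 103715 cells with at least 1000 UMIs, at least 500 genes and at most 20% mitochondrial UMIs, 549 met this rule. Mog, Mag and Mobp encode proteins of the myelin sheath, whereas Pdgfra and Bmp4 mark oligodendrocyte precursors and committed precursors, Cx3cr1 marks microglia and Snap25 marks neurons.

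The study trained mice on a forelimb reaching task and sampled the motor cortex from Fos-CreER::Ai9 animals and the dorsal striatum from Arc-CreER::Ai9 animals. Both are TRAP lines, in which a Cre recombinase driven by an activity-dependent promoter turns on a reporter in neurons active around a dose of 4-hydroxytamoxifen (4-OHT), and all groups carried the reporter allele and received the drug. Control mice received 4-OHT without training, early mice were labelled after 2 days of training and late mice after 8 days, and tissue was taken 3 days later. Tissue was digested with papain. Each pool joined a mouse labelled M and a mouse labelled F, its hemispheres were sequenced as separate libraries, and the 24 libraries thus form 12 pools, 2 for each region and stage. The trained pools have a library contralateral and a library ipsilateral to the trained forelimb, and the control pools have left and right libraries. The right library of dorsal striatum control pool 1 was not analysed here, which leaves 23 libraries. Each region came from its own Cre line, so that region and line cannot be told apart, and the pool is the unit of replication throughout.

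Oligodendrocytes wrap axons in myelin, a membrane rich in cholesterol and in a few abundant proteins, and supply axons with metabolites. They arise from dividing precursors through a committed and then a newly formed, pre-myelinating stage before they reach the stable myelinating stage. In adult mice new oligodendrocytes continue to form, and motor learning is known to draw on this process. Mature oligodendrocytes are commonly sorted into transcriptional subtypes that differ in their proportions between grey and white matter and along the neuraxis.

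The 23 libraries held 127901 barcodes and 5260446 to 30470621 UMIs each, and 469 to 7087 cells per library passed the cell filter. Oligodendrocytes numbered 0 to 102 per library and 5 to 129 per pool, with 1006 to 27573 UMIs per cell and a median of 3541. None of their barcodes recurred among the oligodendrocytes of another library, and 14 recurred among other cells of another library. A doublet caller ranked 13.3% of the oligodendrocytes among the presumed doublets, against 4.92% of all cells, and this share reached 50% in motor cortex control pool 2 and 29.9% in dorsal striatum late pool 2. The labels name 2 versions of the 10x kit without saying which library used which. Shared barcodes placed replicate 1 of the control and late groups of both regions in one kit class and all other pools in a second class.

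The values that chose the cells were a median of 6 UMIs of Mog, 8 of Mag and 15 of Mobp per cell. Near the threshold there were few cells. Only 11 cells had a sum of exactly 4 UMIs and 9 cells, left outside, had a sum of 3 with a UMI of Mog, with medians of 2078 and 2415 UMIs in all. Of 744 cells that passed on the myelin genes alone, Bmp4 left out 155, Snap25 25, Cx3cr1 19 and Pdgfra 13. A further 187 cells reached the sum of 4 without a UMI of Mog.

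Genes outside the rule bore the label out in part. Mbp, which encodes an abundant protein of compact myelin, had a UMI in 100% of the 549 cells, and Cldn11, a tight junction protein of myelin, in 99.6%. The late myelin gene Mal had a UMI in 74.7% of them, Ermn, which encodes a cytoskeletal protein of mature myelin, in 71.8% and Opalin in 51.5%. The shares of other cells with a UMI of these genes are not given here, so that these percentages have no background beside them. Mal, at 3795 CPM (UMIs of the gene per 1e+06 UMIs) in these cells, was at 2.46 CPM in 6503 precursor cells and 2.32 CPM in 12004 microglia. Both were chosen by their own markers and by having no UMI of Mog or Mag. Cells that carried myelin RNA were thus partly left out of both beforehand, so that their low Mal is not independent of that choice. Markers of most other cells were present at low levels, and every marker of the lists outside the rule had a UMI somewhere. Committed precursor markers were the highest, with the 5 outside the rule at 30.8 CPM (Neu4) to 415 CPM (Tnr) and 800 CPM in sum. The 5 precursor markers outside the rule ran from 1.43 to 45.2 CPM. Outside the rule, the 8 astrocyte markers ran from 1.43 CPM (Gfap) to 128 CPM (Slc1a2), the 9 microglia markers from 0.358 to 18.3 CPM, the 9 neuron markers from 3.94 to 69.5 CPM and the 5 endothelial markers from 2.15 to 11.5 CPM. The reporter element wpre had a UMI in 14.2% of the cells, but at an equal depth of 1000 UMIs per cell the share was 3.28%, against 3.12% in microglia and 7.06% in precursors. No UMI of tdtomato was present.

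The oligodendrocytes were not of one kind. When each cell was placed by 2 summed gene sets, 156 of the 549 cells (28.4%) had more UMIs of 6 genes of newly formed oligodendrocytes (Enpp6, Tcf7l2, 9630013A20Rik, Rras2, Tmem2 and Ctps) than of 7 genes of mature subtypes (Ptgds, Il33, Car2, Grm3, Apod, Qdpr and Hapln2). Another 391 cells (71.2%) had more of the mature set, and 2 cells were tied. The label therefore covers a newly formed range and a mature range rather than mature cells alone. Few cells lay between them, with 36 (6.56%) having sums within 2 times of each other. Cells of the newly formed range were deeper, at a median of 6909.5 UMIs against 2978. Presumed doublets made up 7.05% of the newly formed and 15.9% of the mature range, and the median mitochondrial share was 1.46% and 2.81%. Summed over all pools, markers of several other cells were higher in the mature range, at 227 and 522 CPM for astrocytes, 142 and 269 CPM for neurons, 38.5 and 99.2 CPM for microglia and 11.0 and 51.6 CPM for endothelial cells. No single marker of these lists was higher in the mature range in every pool compared. Summed precursor markers, at 159 and 46.9 CPM, and committed precursor markers, at 1660 and 76.0 CPM, were higher in the newly formed range. Those of neuroblasts and progenitors were nearly level, at 37.7 and 37.0 CPM. The part of other cells' RNA in the differences between the ranges was not tested. The split was made after the data had been seen, so that the values between the ranges are a description without a test.

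**Figure D1:**
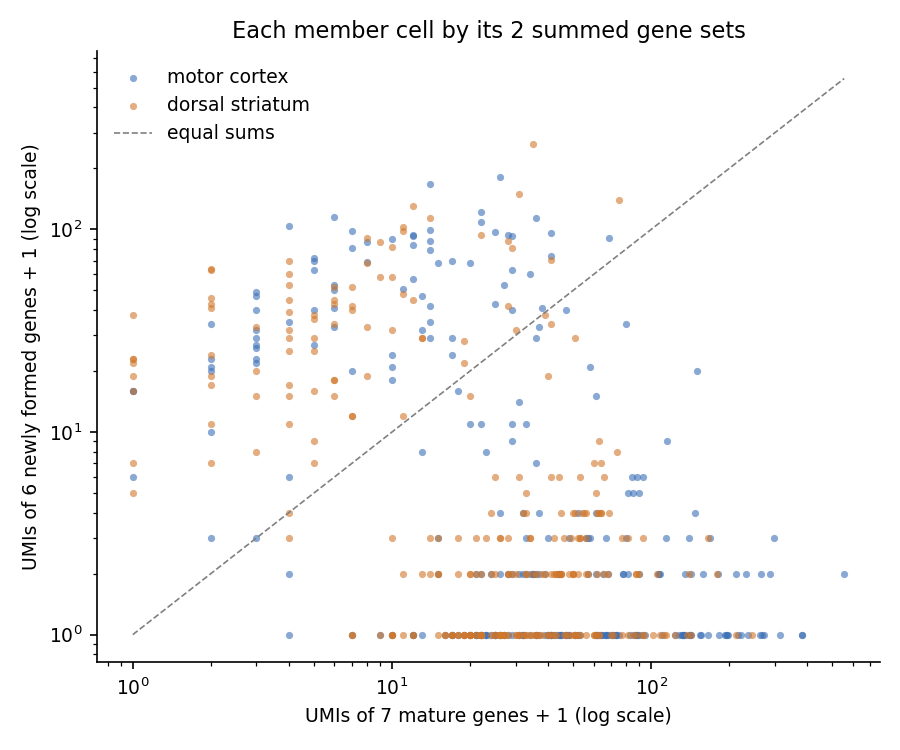
Each point is 1 of the 549 cells, with the UMIs of the 7 mature genes on the horizontal axis and those of the 6 newly formed genes on the vertical axis, both plus 1 and on log scales. The 156 cells above the dashed line of equal sums form the newly formed range, the 391 below it form the mature range, and cells of both regions lie on both sides.

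At an equal depth of 1000 UMIs per cell, Mal had a UMI in 94.4% of the mature range and 3.85% of the newly formed range, and Ermn in 68.8% and 5.77%. The order was the other way for Tnr, a matrix glycoprotein of the precursor and newly formed stages, at 0.256% and 55.1%, and for Gpr17, a receptor that peaks before myelination, at 2.30% and 46.2%. These 4 genes were not used to define the ranges, but Gpr17 stands on the list from which the newly formed set was taken.

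Among 2628 genes, which had at least 200 UMIs in the oligodendrocytes or stood on a gene list, 483 (18.4%) were higher in the newly formed range in every one of the 8 pools with at least 5 cells of both ranges, and 338 (12.9%) were higher in the mature range in every pool. Genes of the lists did not have to meet the minimum, and the 2489 genes that met it gave 481 and 332. Differences below are in log2(CPM + 10), newly formed minus mature, as the mean ± SD over those 8 pools, and counts of genes are counts of genes that lay on one side in all 8.

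Several genes of the stages before myelination were high in the newly formed range. Of 5 committed precursor markers 3 were higher there in every pool, with a median difference of 2.63 against 0.11 over all genes compared. Bmp4, the other marker of that list, was left out because the rule sets it to 0. Of 5 precursor markers outside the rule only 1 was higher in the newly formed range in every pool, with a median difference of 0.48. Tnr differed by 5.60 ± 1.25, Gpr17 by 3.29 ± 1.29 and Itpr2, an intracellular calcium channel, by 4.20 ± 1.02. Fyn, a kinase that relays axonal signals to the start of myelination, differed by 3.68 ± 0.87. Gpr17, Itpr2 and Fyn stand on the list from which the newly formed set was taken, though they were not used in it. Their differences are thus not independent of the choice of that list. Nfasc, an adhesion protein of the axoglial junction, differed by 2.81 ± 0.72, whereas Cntn2, a partner in the juxtaparanodal complex, was 4.18 ± 0.75 lower.

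Cholesterol synthesis genes were high in the newly formed range as well. Of 23 genes 13 were higher in the newly formed range in every pool and none in the mature range, with a median difference of 1.27. Hmgcs1, an early enzyme of the pathway, differed by 1.26 ± 0.49. Idi1 and Fdps, which act between it and squalene, differed by 1.41 ± 0.38 and 1.45 ± 0.90.

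Myelin protein genes were split. Of 17 genes 5 were higher in the newly formed range and 9 in the mature range in every pool, and of the 14 outside the rule 4 and 7. Mag, an adhesion protein of the innermost myelin wrap, differed by 0.67 ± 0.30 and Cnp, an enzyme of uncompacted myelin, by 0.54 ± 0.24, both higher in the newly formed range. Mobp was lower there by 0.61 ± 0.79 on this scale, Mog by 1.27 ± 0.38 and Cryab, a small heat shock protein, by 1.98 ± 0.41. Ermn and Mal stood furthest apart, at differences of -3.30 ± 0.68 and -5.28 ± 0.89. Opalin varied between pools, at -1.14 ± 2.18, and was higher in the newly formed range in 2 of the 8. Mag, Mog and Mobp belong to the rule, and Mbp, at 0.27 ± 0.34, was higher in the newly formed range in 6 of the 8 pools.

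Genes of coupling and of metabolite handling were split. Of 10 genes of gap junctions and potassium handling 3 were higher in the newly formed range and 4 in the mature range in every pool, with a median of -0.87, and of 11 genes of lactate and glucose handling likewise 3 and 4, with a median of 0.0957. Gjb1, the connexin of myelin gap junctions, differed by -4.80 ± 0.47, whereas the connexin Gjc3 differed by 0.71 ± 0.47. Trf, which encodes the iron carrier transferrin, differed by -3.66 ± 0.34, and Fth1, a ferritin subunit, by -4.28 ± 0.52. Trf and Fth1 stand on the list from which the mature set was taken, though they were not used in it. Their differences are thus not independent of the choice of that list. Aspa, which releases acetate for lipid synthesis, differed by -4.28 ± 1.08, the potassium channel gene Kcna1 by -1.93 ± 0.59 and Pmp22, a myelin protein gene best known from peripheral nerve, by -5.12 ± 0.45. Selenop, a selenium carrier, had a difference of -5.74 ± 0.88. Pmp22 and Selenop are on no list and were chosen after their values had been seen.

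Glucocorticoid-responsive genes were also on the mature side, at 6 of 12 genes and a median of -1.59. Only 5 of the 12 had at least 200 UMIs, and 3 of those 5 were higher in the mature range in every pool. Tsc22d3, one of those 3, was at -1.89 ± 1.26, and Zbtb16, with 101 UMIs in all, at -2.59 ± 0.47. Of 26 immediate early genes 2 were higher in the mature range in every pool and none in the newly formed range. That is a smaller share than the 12.9% over all genes compared, but only 8 of the 26 had at least 200 UMIs. Fos was higher in the mature range in 7 of 8 pools, at -2.42 ± 1.24. Of 17 genes of disease-associated oligodendrocytes 2 were higher in the newly formed range in every pool, a smaller share than the 18.4% over all genes compared. Only 4 of the 17 had at least 200 UMIs. The antigen-presentation gene H2-K1 was one of the 2, at 3.11 ± 1.47. The antigen-presentation genes H2-D1 and B2m, with 104 and 107 UMIs in all, did not share its direction, at -0.17 ± 1.12 and -0.64 ± 1.00.

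**Figure D2:**
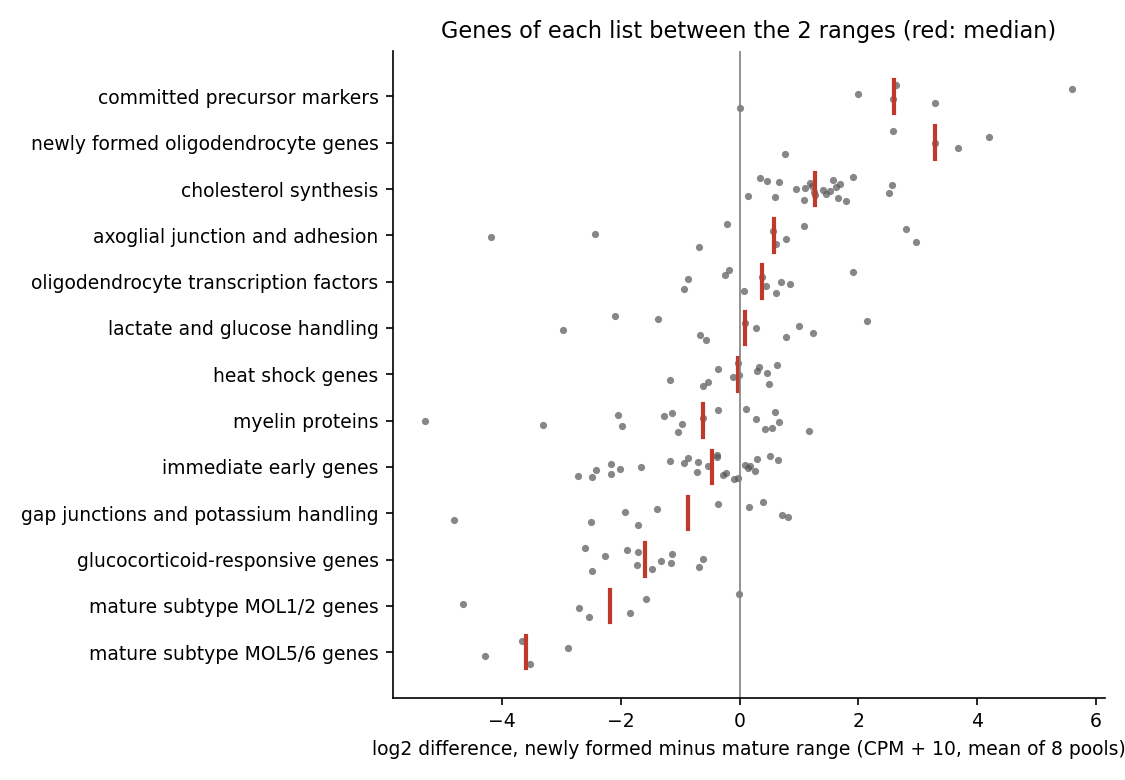
Each grey point is 1 gene of the list named at the left, placed at its log2(CPM + 10) difference between the newly formed and the mature range (mean of 8 pools), and red bars are list medians. The committed precursor point at 0 is Bmp4, which the rule excluded. Cholesterol synthesis genes lie to the right of 0 with a median of 1.27, myelin protein genes lie on both sides, and glucocorticoid-responsive genes lie to the left with a median of -1.59.

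The share of oligodendrocytes among all cells varied widely between pools of a group. In motor cortex the 2 control pools held 0.162% and 0.328%, the early pools 1.21% and 0.0609%, and the late pools 0.926% and 0.204%. In dorsal striatum they held 0.732% and 0.322% in controls, 0.498% and 0.302% in early pools and 0.539% and 0.726% in late pools. Motor cortex early pool 1 and late pool 1 stood above every other pool, and the other 4 motor cortex pools at or below 0.328%. For early pool 1 the 95% Wilson interval was 0.990% to 1.49%, which covers counting error only.

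Over 6 pools each, the mean share was 0.520% ± 0.187 (SD) in dorsal striatum and 0.482% ± 0.472 in motor cortex, a difference of 0.0372 percentage points (two-sided exact permutation test, p = 0.866). In dorsal striatum both late pools lay above both early pools, by 0.232 percentage points on average (two-sided exact permutation test, p = 0.333, the smallest that 2 pools against 2 can give), and the other stages of either region overlapped. Each motor cortex control pool shared a flow cell with a trained pool. The share was 0.328% in control pool 2 and 1.21% in early pool 1 of one flow cell, and 0.162% in control pool 1 and 0.926% in late pool 1 of another, so that the trained pool was the higher one in both. In dorsal striatum it was 0.322% in control pool 2 and 0.498% in early pool 1, but 0.732% in control pool 1 and 0.539% in late pool 1. Shares of dissociated cells also follow how well a cell type survives dissociation, which was not tested.

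The share of oligodendrocytes in the newly formed range ran from 8.70% in dorsal striatum early pool 1 to 87.5% in motor cortex late pool 2. Motor cortex pools of the same stage differed widely, at 37.5% and 61.5% in controls, 23.1% and 60% in early pools and 14.0% and 87.5% in late pools. In dorsal striatum the values were 11.1% and 48% in controls, 8.70% and 35.7% in early pools and 36.5% and 40.3% in late pools. The 2 motor cortex pools with the most oligodendrocytes, early pool 1 and late pool 1, had the lowest newly formed shares of that region. Within flow cells the trained motor cortex pool had the lower one, at 23.1% against 61.5% and 14.0% against 37.5%, whereas in dorsal striatum early pool 1 had 8.70% against 48% and late pool 1 had 36.5% against 11.1%. Values from motor cortex control pool 1 and early pool 2 rest on 8 and 5 cells.

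**Figure D3:**
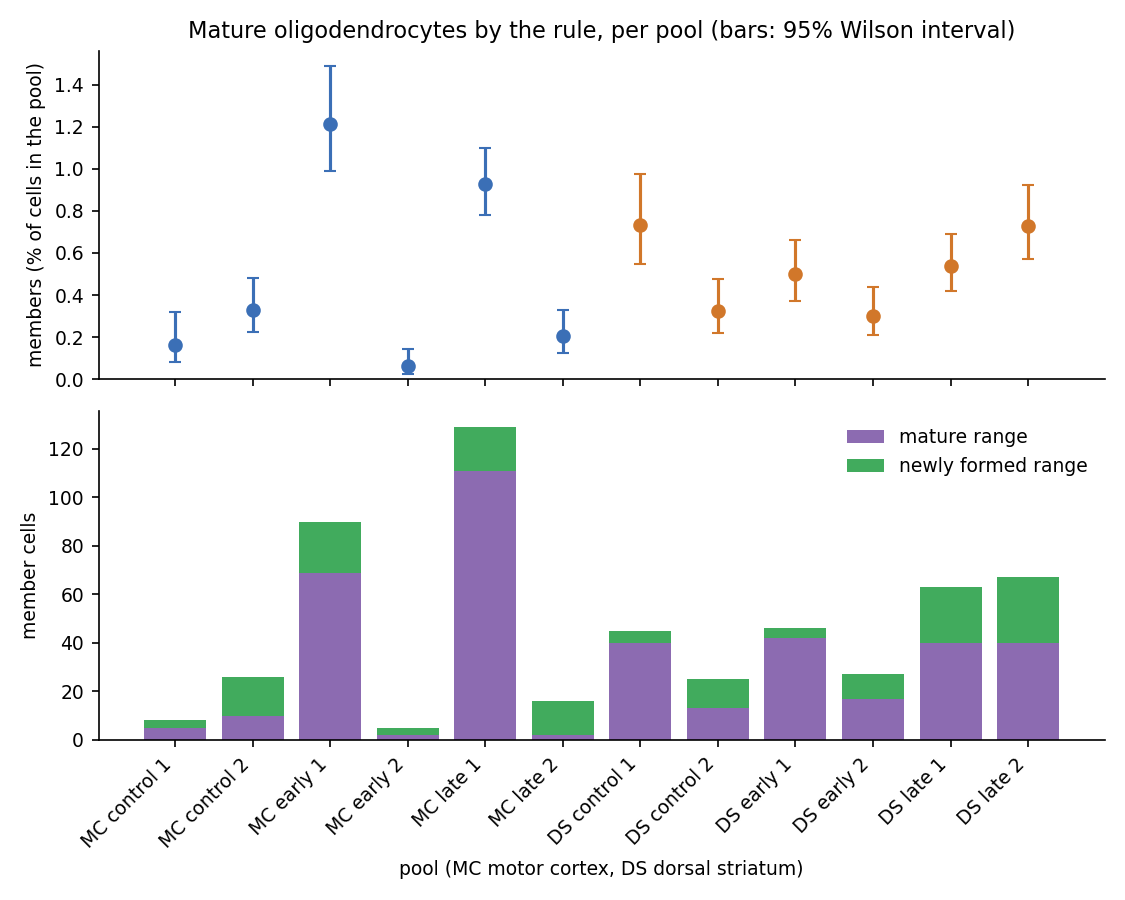
The upper panel shows oligodendrocytes as a percentage of the cells of each pool with 95% Wilson intervals, and the lower panel shows the number of cells in the mature and newly formed ranges. Motor cortex early pool 1 (1.21%) and late pool 1 (0.926%) stand above the other pools. The shares of pools of the same region and stage differ by more than the means of the regions do (0.0372 percentage points).

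The comparison of regions asks which oligodendrocyte genes differed between dorsal striatum and motor cortex. UMIs were summed per pool and tested with edgeR's quasi-likelihood test (Benjamini-Hochberg adjustment over all genes) in the 9 pools with at least 20 oligodendrocytes, 3 of motor cortex and 6 of dorsal striatum. Of 3781 genes 3 were called, 0.0793%, all of them higher in dorsal striatum: Klk6, Pcp4 and CT010467.1. At an unadjusted p under 0.05 there were 225 genes, and DESeq2 called 4. Pcp4 and CT010467.1 are named because so few genes were called, and were chosen after their values had been seen.

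Klk6 (chr7:43824499-43832030, plus strand, GRCm38) encodes a secreted trypsin-like protease of myelinating glia and is a marker of the mature subtypes MOL1/2. Its levels in the 6 dorsal striatum pools were 340 and 55.9 CPM in controls, 264 and 173 CPM in early pools and 671 and 267 CPM in late pools. In motor cortex they were 161 and 21.4 CPM in controls, 67.4 and 0 CPM in early pools and 60.3 and 10.5 CPM in late pools. The groups overlap through motor cortex control pool 1, whose level rests on 3 UMIs, and dorsal striatum control pool 2, whose level rests on 11. The fitted log2 difference was 2.45 ± 0.38 (SE; edgeR adjusted p = 0.0187).

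The call was lost when certain pools were left out, while the difference stayed between 1.78 and 3.07. Without motor cortex control pool 2, early pool 1 or late pool 1 the edgeR adjusted p was 0.148, 0.107 and 0.360, and without dorsal striatum control pool 1 or late pool 2 it was 0.103 and 0.110. The log2 difference without motor cortex late pool 1 was 1.78. The call was also lost with a stricter gate on the cells (2.18, edgeR adjusted p = 0.9997), which took motor cortex and dorsal striatum control pools 2 under the minimum of 20 cells, and with that gate and all 9 pools (2.09, edgeR adjusted p = 0.0876), as it was without the kit class as a term (2.40, edgeR adjusted p = 0.9996). Removing presumed doublets took motor cortex control pool 2 under the minimum and out of the fit, and the difference was then 2.42 (edgeR adjusted p = 0.0828). With doublets removed and all 9 pools kept it was 2.57 and called (edgeR adjusted p = 0.0445), and with the mature range alone it was 2.44.

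The share of oligodendrocytes with a Klk6 UMI was also compared at an equal depth of 1000 UMIs per cell, over all 12 pools. In dorsal striatum it was 11.1% and 8% in controls, 13.0% and 7.14% in early pools and 27.0% and 23.9% in late pools. In motor cortex it was 4.40% in early pool 1, 3.88% in late pool 1 and 0% in the other 4 pools. Those 4 pools hold few cells, and a count of 0 allows up to 37.5% in control pool 1 (8 cells), 11.5% in control pool 2 (26 cells), 60% in early pool 2 (5 cells) and 18.8% in late pool 2 (16 cells). These limits, which cover counting error only, lie above the lowest dorsal striatum pools, so that the order of single pools is not settled at this depth. The measured share of every dorsal striatum pool lay above that of every motor cortex pool. The means were 15.0% ± 8.39 and 1.38% ± 2.14 (SD, n = 6; two-sided exact permutation test, p = 0.00216, the smallest that 6 against 6 pools can give; adjusted p = 0.0195 over 9 genes). Klk6 was at 397 CPM in the mature and 1.04 CPM in the newly formed range (means of 8 pools), and the limits above count cells of both ranges. Those 4 motor cortex pools held 5, 10, 2 and 2 mature cells, in the order given. In the mature range alone, a grouping made after the data had been seen, the means were 22.7% ± 14.4 and 1.72% ± 2.69 (SD).

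None of the 12004 microglia and none of the 6503 precursors had a Klk6 UMI, which allows shares of up to 0.0250% and 0.0461% (3 counts of the total). Both cell types were chosen without a UMI of Mog or Mag, which also leaves out cells carrying stray myelin RNA. At 2000 UMIs per cell, where 45 motor cortex and 64 dorsal striatum cells are too shallow, the difference of 14.8 percentage points had an adjusted p of 0.195 (exact permutation test). On the 2 flow cells that carried a pool of each region, the shares were 7.14% in dorsal striatum and 0% in motor cortex (early pools 2), and 23.9% and 0% (late pools 2), where the motor cortex pools hold 5 and 16 oligodendrocytes. The late pools of dorsal striatum held the highest shares, but a test of stage on 2 pools each cannot pass the threshold.

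Of the 6 genes of that list 4 were tested and all 4 were higher in dorsal striatum, with a median log2 difference of 1.40 against -0.02 over all genes, and Klk6 alone was called. Hopx, a homeodomain cofactor, had a log2 difference of 1.85 ± 0.48 (edgeR adjusted p = 0.351) and Anxa5, a phospholipid-binding protein, 0.94 ± 0.29 (edgeR adjusted p = 0.483). After thinning, Hopx had a UMI in 3.90% of dorsal striatum and 3.25% of motor cortex oligodendrocytes and Anxa5 in 10.1% and 5.26%, with adjusted p values of 0.766 and 0.195 (exact permutation tests). In the mature range alone the share for Hopx was 0% to 10% in the dorsal striatum pools and at most 0.901% in 4 motor cortex pools, with 20% and 50% in control pool 1 and late pool 2, which have 5 and 2 such cells, so that the regions overlapped.

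Apod, which encodes a lipid carrier and marks the mature subtypes MOL5/6, was at 1336 to 3278 CPM in dorsal striatum and 190 to 1247 CPM in motor cortex, and the groups did not overlap. Its log2 difference of 1.30 ± 0.31 was not called by edgeR (adjusted p = 0.288) but was by DESeq2 (adjusted p = 0.0199). It was also called by edgeR without the count filter (1.23, adjusted p = 0.00642), without dorsal striatum early pool 2 (1.49, 0.0261), in the mature range alone (1.00, 0.0155) and with the newly formed share as a term (1.17, 0.00720). Apod is one of the 7 genes that define the ranges, so that the last 2 settings are not independent of it. Over the other settings the edgeR adjusted p ran from 0.110 to 0.9999. Ptgds, a prostaglandin D synthase of the same subtypes, leaned the other way, at -1.04 ± 0.31 (edgeR adjusted p = 0.475). It ranged from 632 to 7718 CPM in motor cortex and from 935 to 6410 CPM in dorsal striatum, so that the regions overlapped. Of the 10 tested MOL5/6 genes 6 were higher and 4 lower in dorsal striatum, and none was called. Il33, an alarmin of mature oligodendrocytes, stood at -0.38 ± 0.34 and Car2, a carbonic anhydrase, at 0.14 ± 0.34.

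Opalin, a membrane glycoprotein gene of myelinating cells (chr19:41061710-41077113, minus strand), was 0.88 lower in dorsal striatum on the log2 scale, a value of -0.88 ± 0.35 that was not called (edgeR adjusted p = 0.726). Within the mature range, a grouping made after the data had been seen, a UMI of Opalin at equal depth was present in 60% and 60% of motor cortex control cells, 52.2% and 100% in early pools and 57.7% and 50% in late pools. In dorsal striatum the values were 42.5% and 30.8% in controls, 23.8% and 17.6% in early pools and 27.5% and 20% in late pools. The groups do not overlap, although motor cortex early pool 2 and late pool 2 have only 2 mature cells each. Over all 549 cells the means were 27.0% and 37.9% and overlapped (exact permutation test, adjusted p = 0.218).

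**Figure D4:**
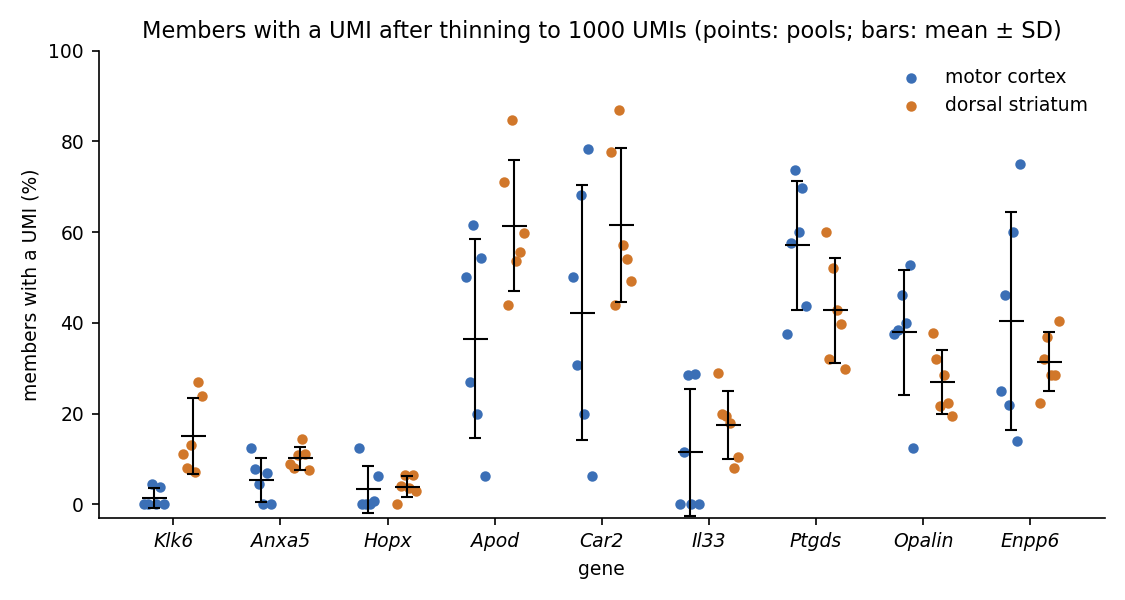
Points are pools, placed at the percentage of oligodendrocytes with a UMI of each gene after thinning every cell to 1000 UMIs, and bars are the mean ± SD of 6 pools per region. The regions are apart for Klk6 (15.0% in dorsal striatum and 1.38% in motor cortex) and overlap for the other 8 genes.

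Myelin and stage genes showed no called difference between regions. None of 17 myelin protein genes was called, with 13 of them lower in dorsal striatum and a median of -0.13. The list holds Mog, Mag and Mobp, which chose the cells, and without them 10 of 14 were lower, with a median of -0.15. Mbp was at -0.61 ± 0.27, Cnp at -0.42 ± 0.25 and Mal at 0.26 ± 0.31. None of the 22 tested cholesterol synthesis genes was called, with 17 lower in dorsal striatum and a median of -0.51. Enpp6, a choline phosphodiesterase of newly formed cells, stood at 0.26 ± 0.28, Fos at 0.12 ± 0.34, Egr1 at -0.28 ± 0.37 and the glucocorticoid-responsive kinase gene Sgk1 at -0.39 ± 0.29.

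The signs of Mal, Il33, Car2, Enpp6, Fos and Egr1 turned under at least one other setting and carry no direction. Serpina3n and C4b, acute-phase and complement genes of reactive oligodendrocytes, were too low to test, at 5 and 15 UMIs in all. The list of disease-associated genes had 6 tested members, none of them called.

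Pcp4 (chr16:96467606-96525793, plus strand) encodes a calmodulin-binding peptide abundant in striatal neurons. In dorsal striatum it was at 178 and 30.5 CPM in controls, 84.6 and 65.7 CPM in early pools and 549 and 37.8 CPM in late pools, and in motor cortex at 0 and 16.1, 17.9 and 24.5, and 56.1 and 0 CPM. The regions overlap in these levels. The highest pool, dorsal striatum late pool 1, also had the highest summed level of 10 striatal spiny neuron markers, 989 CPM against 95.5 to 142 CPM in the other dorsal striatum pools and 0 to 143 CPM in motor cortex. The part of neuronal RNA in the Pcp4 value was not tested.

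The log2 difference of Pcp4 was 2.37 ± 0.38 (edgeR adjusted p = 0.0187). Without dorsal striatum late pool 1 it was 1.77 (edgeR adjusted p = 0.112), and without dorsal striatum control pool 1 or late pool 2 it was 2.48 and 2.52 (edgeR adjusted p = 0.0697 and 0.0812). Without motor cortex early pool 1 or late pool 1 it was 2.47 and 1.69 (edgeR adjusted p = 0.335 and 0.518). The call was also lost with sums thinned to equal depth (1.74, edgeR adjusted p = 0.325), with the stricter gate (1.86, 0.9997, and 1.89, 0.147 with all 9 pools kept) and without the kit term (2.21, 0.9996).

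CT010467.1 (chr17:39846353-39848827, minus strand) is annotated as ribosomal RNA. It was at 8.49 and 96.5 CPM in dorsal striatum controls, 867 and 788 CPM in early pools and 0 and 194 CPM in late pools, against 0 and 0, 103 and 294, and 4.16 and 537 CPM in motor cortex. All 4 pools of the first kit class were at 8.49 CPM or less, and so was motor cortex control pool 2 of the second class, at 0 CPM. No early pool is in the first class, and the part of the kit in this value was not tested on its own. The log2 difference of 3.04 ± 0.49 (edgeR adjusted p = 0.0187) lost its call in 5 of 9 fits that left out a pool. Those fits left out motor cortex control pool 2 or early pool 1 (2.77 and 3.16), dorsal striatum control pool 1 or 2 (3.01 and 2.96) or late pool 2 (3.06). It also lost the call with at least 5 cells per pool (1.40, edgeR adjusted p = 0.675), with presumed doublets removed (2.76, 0.282, and 2.94, 0.133 with all 9 pools kept), with the stricter gate (2.48, 0.9997, and 2.64, 0.0876 with all 9 pools kept) and without the kit term (3.48, 0.9996).

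Region differences were also compared between the oligodendrocytes and 2 other cell types of the same 9 pools, by a term for the difference of the differences. Against precursors 43 of 9603 genes were called (0.448%), 23 (0.24%) with a more positive dorsal striatum minus motor cortex difference in oligodendrocytes and 20 (0.208%) with a more negative one. DESeq2 called 3. Against microglia 78 of 9240 genes were called (0.844%), 15 (0.162%) and 63 (0.682%) in the same 2 directions, and DESeq2 called 14, with no adjusted p for 180 genes. Without motor cortex early pool 1 the counts were 10 and 27, and without motor cortex late pool 1 that against microglia was 50.

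Fabp5, a fatty acid-binding protein gene, was among the called genes whose levels in oligodendrocytes did not overlap between the regions. In oligodendrocytes it was at 9.49 to 10.46 log2 CPM in the 6 dorsal striatum pools and 10.84 to 11.18 in the 3 motor cortex pools, and in precursors at 6.88 to 7.95 and 6.79 to 7.67. The term was -1.11 ± 0.23 against precursors and -2.54 ± 0.26 against microglia (edgeR adjusted p = 0.00495 and 1.77e-10). The term against microglia also holds the region difference of microglia, whose levels are not given here. Fabp5 was not among the 3 genes called between regions in oligodendrocytes themselves. The call against microglia held in all 9 fits that left out a pool. That against precursors was lost without motor cortex early pool 1 (-0.95, edgeR adjusted p = 0.647), and with DESeq2, doublet removal, the stricter gate and thinned sums (adjusted p 0.146, 0.0918, 0.0543 and 0.193). With all 9 pools kept it was also lost under doublet removal (-0.87, edgeR adjusted p = 0.517) and held under the stricter gate (-1.03, edgeR adjusted p = 0.00875). Against microglia the calls of Adcy5 and Tac1, genes of the striatal spiny neuron marker list, also held in all 9 fits that left out a pool. Their terms ran from -4.63 to -2.81 and from -5.07 to -4.30 over those fits. The part of neuronal RNA in these terms was not tested. Against precursors Ntrk2, the receptor of brain-derived neurotrophic factor, was at 1.47 ± 0.34 (edgeR adjusted p = 0.0189). Mir99ahg, a microRNA host gene, was at 1.56 ± 0.39 (edgeR adjusted p = 0.0380). Each of these 2 calls was lost in 5 of 9 fits that left out a pool. For Ntrk2 these were the fits without motor cortex control pool 2, early pool 1 or late pool 1 (1.55, 1.38 and 1.49) and without dorsal striatum control pool 1 or early pool 2 (1.38 and 1.33), with adjusted p values up to 0.658. For Mir99ahg they were those without motor cortex control pool 2 or early pool 1 (1.37 and 1.42) and without dorsal striatum control pool 1, early pool 1 or late pool 2 (1.47, 1.26 and 1.56), with adjusted p values up to 1. DESeq2 called neither gene (adjusted p = 0.441 and 1.00). Ntrk2 also lost the call with doublets removed (1.10, edgeR adjusted p = 0.980), the stricter gate (1.65, 0.191, but not with all 9 pools kept, 1.90, 0.00742), thinned sums (1.46, 0.511) and the mature range alone (0.87, 0.879). Mir99ahg lost it with doublets removed (1.25, edgeR adjusted p = 0.688), the stricter gate (0.99, 1), thinned sums (2.28, 0.203), the mature range alone (1.19, 0.334) and no count filter (1.52, 0.0671).

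Of genes on the lists, Ptgds differed more positively in oligodendrocytes than in precursors, at 2.36 ± 0.37 (edgeR adjusted p = 2.41e-05). That call was lost without motor cortex early pool 1 (1.21, edgeR adjusted p = 1), with presumed doublets removed (0.56, edgeR adjusted p = 1, and 2.05, 0.158 with all 9 pools kept) and with DESeq2 (2.17, adjusted p = 1.00). The homeobox gene Nkx6-2 was at 8.63 to 9.12 log2 CPM in oligodendrocytes of the 6 dorsal striatum pools and 8.82 to 9.86 in those of the 3 motor cortex pools, which overlap. In precursors, which held 56 UMIs of it in all, it was at 2.57 to 4.78 and 0.14 to 0.60. The term was -5.59 ± 0.59 (edgeR adjusted p = 5.91e-10), and was not called with thinned sums (-4.45, edgeR adjusted p = 0.203). Such a term moves with the region difference of either cell type. In oligodendrocytes themselves Ptgds was not called, and it leaned the other way, lower in dorsal striatum. Its region difference there ran from -1.47 to -0.74 over the 9 fits that left out a pool. The levels of Ptgds in precursors are not given here, so that the positive term does not mean a higher level in dorsal striatum oligodendrocytes.

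The comparison of training stages asks whether oligodendrocytes of trained pools differed from those of controls. No gene was called in dorsal striatum for early against control, late against control or late against early among 3872 genes (0% each; edgeR), and DESeq2 called none. The 3 comparisons had 135, 84 and 207 genes with an unadjusted p under 0.05. In motor cortex only 1 pool per stage had 20 oligodendrocytes. With the minimum lowered to 5 cells after the data had been seen, no gene was called among 3221 (0% each; edgeR), and DESeq2 again called none. The counts at an unadjusted p under 0.05 were 129, 46 and 104. With presumed doublets removed and all 6 motor cortex pools kept, edgeR called 97, 1 and 36 genes in the same order, so that these counts of 0 are not stable. Both fits have 2 residual degrees of freedom.

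Leaving out single pools brought up to 63 calls in motor cortex and up to 58 in dorsal striatum. Where such a fit leaves 1 pool in a stage, that pool is assumed to vary like the others, and the calls have no replicate check within it. The 63 appeared without motor cortex control pool 1 and the 58 without dorsal striatum early pool 2, both between late and early. Without dorsal striatum early pool 2 there were also 38 calls between early and control, and without motor cortex control pool 2 there were 23 between early and control.

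Over both regions together 1 of 3781 genes (0.0264%) was called between early and control pools, and it was CT010467.1 again, at 3.33 ± 0.52 (edgeR adjusted p = 0.0347). It lost the call in 6 of 9 fits that left out a pool, with adjusted p values up to 0.327. Those fits left out motor cortex control pool 2 or early pool 1 (2.98 and 3.30), dorsal striatum control pool 1 or 2 (3.37 and 4.62), early pool 1 (3.24) or late pool 2 (3.40). The call was also lost with presumed doublets removed (3.01, edgeR adjusted p = 0.409, and 3.29, 0.255 with all 9 pools kept), with at least 5 cells per pool (3.25, 0.398), without the kit term (4.12, 0.987) and with the stricter gate (6.54, 0.9999), but not with that gate and all 9 pools (3.22, 0.0346). Late against control and late against early gave no call with edgeR (65 and 189 genes at an unadjusted p under 0.05), and DESeq2 gave 0 and 1.

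Levels of the main genes mostly overlapped between stages. In dorsal striatum Sgk1 was at 518 and 213 CPM in controls, 296 and 263 CPM in early pools and 220 and 438 CPM in late pools. Fos was at 1070 and 361 CPM in controls, 391 and 209 CPM in early pools and 561 and 287 CPM in late pools, and Enpp6 at 730 and 696, 460 and 770, and 752 and 1008 CPM. In motor cortex Enpp6 was at 1129 and 990 CPM in controls, 618 and 1054 CPM in early pools and 318 and 1759 CPM in late pools. Enpp6 in dorsal striatum was higher in both late pools than in both control pools, without being called, and the other sets given here overlapped between stages. Of all 3872 genes tested in dorsal striatum, 17.6% had late and control pools without overlap, so that the order of Enpp6 carries no direction. The share was 37.8% between early and control pools and 40.3% between late and early pools.

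The hemisphere comparison asks whether oligodendrocytes contralateral to the trained forelimb differed from those on the ipsilateral side of the same pools. In 3 of the 4 trained motor cortex pools they were more frequent on the contralateral side, in 2 of them by many cells. In early pool 1 they made up 2.03% of contralateral cells (72 cells) and 0.481% of ipsilateral cells (19 cells), and in late pool 1 1.49% (102 cells) and 0.381% (27 cells). The 95% Wilson intervals of the hemispheres did not overlap in either pool, at 1.61% to 2.55% against 0.308% to 0.751% and 1.23% to 1.81% against 0.262% to 0.554%. Each side is 1 library, and these intervals cover counting error only, so that they are no test of the hemispheres. Early pool 2 had 5 contralateral oligodendrocytes and none among 4505 ipsilateral cells, which allows a share of up to 0.0666% by 3 counts of the total and 0.0852% by the Wilson interval. Late pool 2 had 0.161% and 0.242%.

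In dorsal striatum 3 of 4 pools had the lower share on the contralateral side. The values were 0.405% and 0.630% in early pool 1, 0.261% and 0.336% in early pool 2, 0.595% and 0.488% in late pool 1 and 0.644% and 0.828% in late pool 2. The largest differences of either region were thus those of motor cortex early pool 1 and late pool 1, in which the contralateral share was 4.21 and 3.92 times the ipsilateral one.

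The 2 motor cortex pools with many contralateral oligodendrocytes also differed in the make-up of the cells. In early pool 1 9.72% of contralateral and 73.7% of ipsilateral oligodendrocytes lay in the newly formed range, and in late pool 1 7.84% and 37.0%. Late pool 2 had 100% of 6 and 80% of 10 cells in that range. In dorsal striatum the contralateral value was the higher one in all 4 pools, at 18.2% and 0%, 45.5% and 29.4%, 39.4% and 33.3%, and 45.5% and 35.3%.

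**Figure D5:**
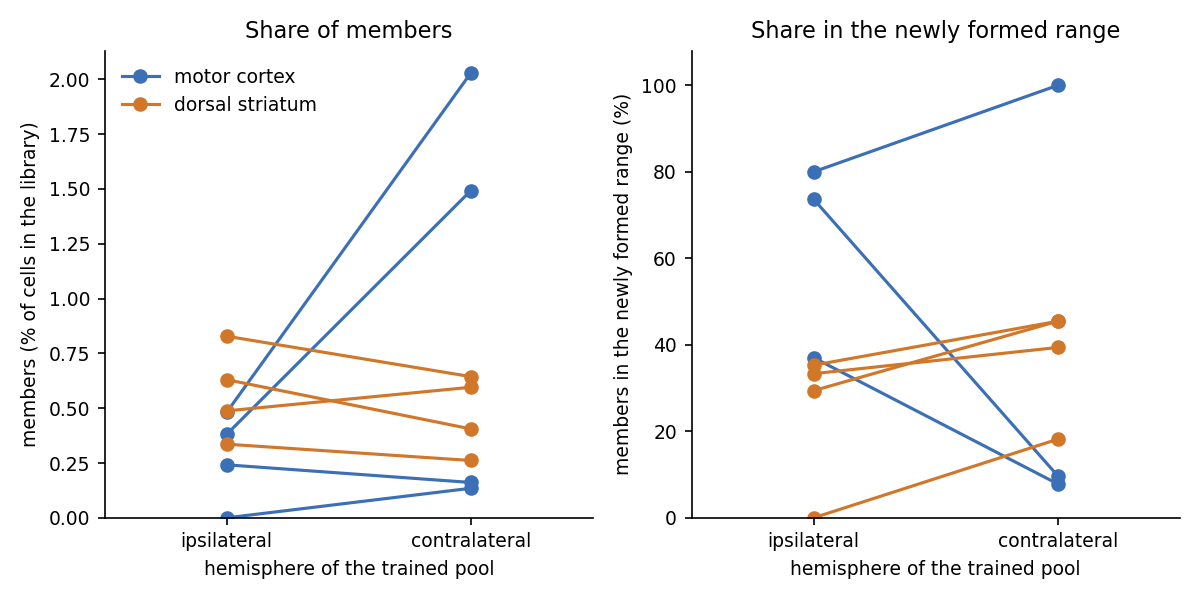
Lines join the ipsilateral and contralateral libraries of a trained pool, with the share of oligodendrocytes among all cells at the left and the share of oligodendrocytes in the newly formed range at the right. The blue lines of 2 motor cortex pools rise at the left, to 2.03% and 1.49%, and fall at the right, to 9.72% and 7.84%; early pool 2 of motor cortex has no ipsilateral value at the right.

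Gene levels could be compared between hemispheres in the same 2 motor cortex pools only. With the pool as a block, 385 of 4425 genes were called between their hemispheres (8.7%; edgeR), 186 higher (4.2%) and 199 lower (4.5%) on the contralateral side. That fit has 1 residual degree of freedom and used a minimum of 10 cells per library, chosen after the data had been seen. DESeq2 called 60 genes, but gave no adjusted p for 2316 of the 4425. Without the pool block edgeR called 0 (376 at an unadjusted p under 0.05). With the block and the same 2 pools, edgeR called 142 genes under the stricter cell filter and 759 with presumed doublets removed. The ranges were not balanced between the hemispheres, as given above, and too few ipsilateral cells lay in the mature range to fit it alone, so that the part of the newly formed share in these calls was not tested.

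The counts of list genes higher or lower that follow are counts of called genes. Of the 10 tested MOL5/6 genes all 10 were higher contralaterally, among them Apoe, a lipid carrier, at 2.79 ± 0.27 (log2 difference ± SE; edgeR adjusted p = 7.75e-07) and Trf at 1.59 ± 0.23 (edgeR adjusted p = 6.11e-05). Of the 10 tested newly formed genes 8 were lower, among them Rras2, a small GTPase, at -2.45 ± 0.25 (edgeR adjusted p = 1.22e-06). The genes that define the ranges were taken from these lists, Rras2 among them, whereas Apoe and Trf were not used. The ranges were not balanced between the hemispheres, so that the counts of both lists are not independent of that imbalance. Of the 22 tested cholesterol synthesis genes 11 were lower and none higher, with a median of -0.85 against -0.01 over all genes. Hmgcs1 was at -0.91 ± 0.22.

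Gjb1 was higher contralaterally by 3.20 ± 0.39 and Klk6 by 4.84 ± 0.80 on the log2 scale (edgeR adjusted p = 1.16e-05 and 0.000252). The Klk6 value rests on 49 UMIs in early pool 1 and 29 in late pool 1, both hemispheres summed. Klk6 was at 1.04 CPM in the newly formed and 397 CPM in the mature range (means of 8 pools), and those ranges were not balanced between the hemispheres. Of the 14 tested immediate early genes 8 were higher and none lower. Fos was at 1.41 ± 0.24 and Fosb at 2.55 ± 0.37 (edgeR adjusted p = 0.000394 and 5.87e-05). Of the 10 tested glucocorticoid-responsive genes 4 were higher, among them Sgk1 at 1.20 ± 0.29 (edgeR adjusted p = 0.00781), and 1 was lower.

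Among 17 myelin protein genes 4 were called, all higher contralaterally. The 14 outside the rule hold all 4 calls, and by sign alone 7 of them were higher and 7 lower. The called ones included Mal at 1.49 ± 0.34 (edgeR adjusted p = 0.00534) and Ermn at 1.18 ± 0.23 (edgeR adjusted p = 0.00171). Mbp at -0.09 ± 0.29 was not called. None of the 10 tested heat shock genes was called.

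In dorsal striatum no gene was called between hemispheres among 1930 genes in 3 pools (0%; edgeR; 168 at an unadjusted p under 0.05; DESeq2 1). Without late pool 1 there were 30 calls. A fit over both regions could use those 3 dorsal striatum pools and, of motor cortex, late pool 1 alone. In it 0 of 2217 genes (0%) were called with edgeR, and none by DESeq2, and 66 had an unadjusted p under 0.05. A test of whether the hemisphere difference itself differs between the regions was not run.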

How the data were processed

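The authors deposited 10x Genomics matrices of UMI counts by gene and barcode, not normalized, made with Cell Ranger 3.1.0 on GRCm38/mm10 per the submitters' processing notes, while the headers of the files name release 3.0.2. The annotation and cell calling are not given in the sources used here. Of 54235 feature IDs 54079 were found in GENCODE M21, which gave positions.

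UMIs were summed over the oligodendrocytes of a pool and tested with edgeR 4.0.16 (TMM, filterByExpr, quasi-likelihood F test; R 4.3.3) with region, stage and kit class as terms, or hemisphere with the pool as a block, in pools of at least 20 cells. Calls are at a Benjamini-Hochberg adjusted p under 0.05, and SE is the log2 change over the root of F. Shares were compared by two-sided exact permutation of pools. Presumed doublets (Scrublet in scanpy 1.11.5, the top 0.8% per 1000 barcodes) were kept and removed in an alternative. The fits were tested on simulated data, where the region fit also called some unchanged genes and the dorsal striatum stage fit missed most of the changes. Precursors had at least 2 UMIs of Pdgfra and none of Cx3cr1, and microglia at least 4 UMIs of Cx3cr1, P2ry12 and Tmem119 together. Both had no UMI of Mog or Mag and at most 3 of Snap25.

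The rule for named genes was: called genes with separate groups, the 12 largest changes in each direction; called genes of the lists; and 19 fixed genes. Some genes that the rule names are not reported here. The members, lists and tests were chosen with earlier results of these data known. Replicates are numbered in record order, and the numbers pair nothing. Pools of 2 mice are the replicates, and nothing in the labels says more about their independence. The alternatives were other size factors, no count filter, DESeq2 1.42.0, stricter cell and gene gates, thinning, other cell minimums, no kit term and each pool left out.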

Additional observations from a re-analysis of the deposited data

Results flagged for a closer look

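Of 90 groups of 6 pools examined, 17 had a pool far from the other 5 by Dixon's test. Chance gives about 1 in 20 groups where values are independent and normally distributed. These groups share genes and pools, and some rest on a few UMIs, so that the count cannot be set against that rate. The shares of presumed doublets stood apart in motor cortex control pool 2 (50% of oligodendrocytes, the next pool 15.5%) and in dorsal striatum late pool 2 (29.9%, the next 6.52%).

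Dorsal striatum late pool 1 stood apart in 6 measures. Its oligodendrocytes had 549 CPM of Pcp4 (the next pool 178), 11.6 CPM of Serpina3n (the next 2.52), and summed levels of 1075 CPM for neuron markers, 428 CPM for cortical glutamatergic neuron markers, 989 CPM for striatal spiny neuron markers and 422 CPM for microglia markers. The next dorsal striatum pools had 203, 52.9, 142 and 84.9 CPM. The Serpina3n levels rest on 2 UMIs in late pool 1 and 1 UMI in the next pool.

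C4b was at 123 CPM in motor cortex early pool 2, which has 5 oligodendrocytes, and at 4.13 CPM or less in the other motor cortex pools. Astrocyte markers summed to 1132 CPM in dorsal striatum early pool 1 (the next 560). Endothelial markers were at 54.1 CPM in motor cortex late pool 1 and 137 CPM in dorsal striatum early pool 1. Mural and fibroblast markers were at 217 CPM in motor cortex early pool 1 and 170 CPM in dorsal striatum control pool 1. Precursor markers summed to 242 CPM in motor cortex late pool 2. Neuroblast and progenitor markers were at 31.6 CPM in motor cortex late pool 2 and 131 CPM in dorsal striatum late pool 2. The part of other cells' RNA in any result was not tested.

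The region difference itself differed between cell types, by the term for the difference of differences (edgeR adjusted p under 0.05), for 43 genes against precursors and 78 against microglia.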

How the results depend on the processing

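Some settings took pools under the minimum of cells. Doublet removal dropped motor cortex control pool 2 (dorsal striatum late pool 2 for hemispheres), the stricter gate both control pools 2 (dorsal striatum early pool 1 for hemispheres) and the stricter cell filter motor cortex control pool 1 from its stages, dorsal striatum late pool 1 against precursors and 2 of 4 pools from the hemispheres over both regions. These counts therefore change 2 choices at once. With all pools kept, an alternative added after seeing the data, the region count was 2 with doublets removed and 1 with the stricter gate, early against control over both regions 0 and 2, against precursors 8 and 46, against microglia 13 and 60, dorsal striatum hemispheres 0 and 1, and the motor cortex late stage against controls 1 (stricter gate).

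Numbers of called genes moved with the processing, and counts are given here in the order of the settings. For the region comparison (3 genes), the count was 42 without a filter on low counts, 1 with presumed doublets removed, 0 with the stricter gate, 0 without the kit term, 1 with at least 5 cells per pool, 21 in the mature range alone and 13 with the newly formed share as a term. Leaving out single pools gave 0 to 8. For motor cortex stages (0 genes each), early against control gave 7 with the stricter cell filter and 97 with presumed doublets removed. Late against control gave 1 with RLE factors, 1 without the filter, 7 with the stricter cell filter and 1 with doublets removed, and late against early gave 68 and 36 with the last 2 settings. Leaving out pools gave 0 to 23, 0 to 6 and 0 to 63. For dorsal striatum stages (0 each), early against control gave 14 without the filter and 1 each with doublets removed, with the stricter gate and in the mature range. Late against control gave 7 without the filter, and late against early 12 without the filter and 7 with the stricter gate. Leaving out pools gave 2 to 38, 3 to 6 and 0 to 58.

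Over both regions, early against control (1 gene) gave 32 without the filter, 3 with DESeq2, 2 with thinned sums, 2 in the mature range and 0 with doublets removed, with the stricter gate, without the kit term and with at least 5 cells. Late against control gave 9 without the filter and 1 in the mature range, and late against early 18 without the filter, 1 with DESeq2 and 1 in the mature range. Leaving out pools gave 0 to 9, 0 and 0 to 1. Against precursors (43) the count was 3 with DESeq2, 24 with doublets removed, 5 with thinned sums and 76 in the mature range, and 10 to 61 without single pools. Against microglia (78) it was 14, 35 and 7 with the first 3 of these and 43 with the stricter gate, and 27 to 105 without single pools. Among the 9 thinned shares, 0 were called at 2000 UMIs and 3 in the mature range, and 1 to 2 without single pools. The cause of these moves was not tested.

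Hemispheres were fitted with a replicate block, the pool. The alternative planned without the replicate block put stage, kit class and region in place of the pool. With so few pools these terms span the same space as the block, so that it was the same model and its equal counts (385, 0 and 0) say nothing about stability. An unpaired fit with hemisphere alone, added after seeing the data, gave 0 calls in motor cortex, 0 in dorsal striatum and 0 over both. In motor cortex (385) the count was 60 with DESeq2, 142 with the stricter cell filter and 759 with doublets removed. In dorsal striatum (0) it was 20 without the filter, 1 with DESeq2, 24 with doublets removed, 10 with the stricter gate and 6 in the mature range, and 0 to 30 without single pools. Over both (0) it was 3 without the filter and 11 in the mature range, and 0 without single dorsal striatum pools. Without motor cortex late pool 1, or with doublets removed or the stricter gate, no motor cortex pool was left and the fit was not made. No pool could be left out in motor cortex, where 2 were fitted.

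Between regions some log2 differences that were not called turned sign. Car2 stood at -0.0297 with the stricter cell filter, -0.29 with doublets removed, -0.33 with the stricter gate, -0.15 in the mature range and -0.0297 with the newly formed share as a term. With the stricter gate and all pools kept Car2 stood at -0.23 and Mal at -0.00635. Mal stood at -0.23 with doublets removed. Fos stood at -0.47 with doublets removed, -0.42 with the stricter gate and -0.28 in the mature range. With at least 5 cells Enpp6 stood at -0.22, Egr1 at 0.0830 and Il33 at 0.10. Without single pools Mal ran from -0.20 to 0.67, Car2 from -0.29 to 0.45, Fos from -0.47 to 0.71, Egr1 from -0.76 to 0.39, Enpp6 from -0.14 to 0.49 and Il33 from -0.78 to 0.17. Against precursors H2-K1 stood at -0.0849 in the mature range, and Acta2 ran from -9.56 to 1.61 without single pools. The region test of cell shares (two-sided exact permutation) did not pass the threshold under the stricter filter, the stricter gate or doublet removal either (p = 0.983, 0.498 and 0.760), and the stage tests cannot pass it under any setting. Without single pools the region difference of shares ran from -0.0471 to 0.183 percentage points. The motor cortex differences ran from -0.184 to 0.969 (early against control), -0.0414 to 0.681 (late against control) and -0.649 to 0.504 (late against early), and the dorsal striatum ones from -0.332 to 0.0782, -0.0994 to 0.310 and 0.134 to 0.330. A minimum of 50 cells per pool could not be fitted, nor the stricter gate for motor cortex stages at their minimum or the stricter cell filter for dorsal striatum hemispheres. With 5 to 129 oligodendrocytes per pool, depth limits every gene at a few UMIs per pool.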
